A study of Mus musculus with 24 samples.

Results

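The 10 genes described here belong to the interleukin-1 and tumor necrosis factor (TNF) response and its NF-kappaB feedback, and were measured in RNA from mouse brain microvessels after experimental stroke. They are the ligands Il1a, Il1b and Tnf, the antagonist Il1rn, the receptors Il1r1 and Tnfrsf1a, and the feedback genes Tnfaip3, Nfkbia, Nfkbiz and Relb, chosen by gene symbol among the 17270 genes of the expression table. All animals were male C57BL/6J mice of 10 to 12 weeks. They underwent either transient occlusion of the middle cerebral artery for 60 min (tMCAO) or sham surgery, in which the filament was advanced to the same place and withdrawn at once. Microvessels were taken from the operated (ipsilateral) and the opposite (contralateral) side at 24 h or 7 days, which gives 8 groups of 3 libraries and 24 libraries in all. The paper states that more samples were made per group, that some were found to be outliers, and that 3 per group were kept. Spread and overlap are therefore those of the samples kept. Each library was made from 3 hemispheres pooled before RNA extraction, so the spread between libraries is a spread between pools and not between mice.

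Interleukin-1α and interleukin-1β signal through the receptor encoded by Il1r1, and TNF signals through the receptor encoded by Tnfrsf1a. Both receptors recruit adaptors and kinases that release NF-kappaB from its inhibitors, after which NF-kappaB switches on cytokines, chemokines and adhesion molecules in the vessel wall. It also switches on its own brakes, among them the inhibitor encoded by Nfkbia and the ubiquitin-editing enzyme A20 encoded by Tnfaip3. Myeloid cells are known as the main source of interleukin-1β and TNF, and endothelial cells as a target of both.

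Tnfaip3 and Nfkbia are textbook NF-kappaB target genes, and the bases before the start sites were searched for its motif. Promoter windows from RefSeq (GRCm38.p6) were given for 8 of the 10 genes, in 12 windows since some genes have several start sites, and the 250 bases before each start were searched on both strands for the kappaB consensus. A match was present in 3 of the 12 windows and in 7.25% of all 32851 windows of that length. The windows of Tnfaip3 and Nfkbia, which hold a match, and of Il1b, which holds none and had the largest change of the 10 genes in the stroke hemisphere at 24 h, are shown 5′ to 3′ on the strand of the gene. Capitals mark the matches.
Tnfaip3 (chr10:19015411-19015660, minus strand): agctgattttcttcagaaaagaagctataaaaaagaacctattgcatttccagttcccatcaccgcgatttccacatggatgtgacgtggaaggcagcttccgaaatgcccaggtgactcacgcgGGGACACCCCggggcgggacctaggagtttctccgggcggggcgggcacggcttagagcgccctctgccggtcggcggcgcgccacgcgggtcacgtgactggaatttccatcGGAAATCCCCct
Nfkbia (chr12:55492648-55492897, minus strand): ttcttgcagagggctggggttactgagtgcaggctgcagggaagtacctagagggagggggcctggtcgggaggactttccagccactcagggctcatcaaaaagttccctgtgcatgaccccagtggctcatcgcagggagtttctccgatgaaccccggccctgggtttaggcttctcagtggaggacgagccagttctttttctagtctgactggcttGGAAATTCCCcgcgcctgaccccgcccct
Il1b (chr2:129371140-129371389, minus strand): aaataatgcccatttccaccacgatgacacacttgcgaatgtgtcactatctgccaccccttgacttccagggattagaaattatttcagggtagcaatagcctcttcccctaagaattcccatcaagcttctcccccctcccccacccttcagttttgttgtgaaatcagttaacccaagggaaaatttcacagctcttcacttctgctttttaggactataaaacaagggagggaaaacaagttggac
The matches of Tnfaip3 began 125 and 12 bases before its start, and that of Nfkbia 29 bases before its start. The third window with a match belonged to a second start site of Il1r1, 232 bases before it. In the windows of Il1a, Il1b, Il1rn, Tnf and Tnfrsf1a these letters were not found, which says nothing about sites elsewhere. A match describes the sequence and is no measurement of binding.

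The libraries held 15924780 to 18787932 normalized counts each, and size factors estimated from the table were 0.805 to 1.238, so a normalized count stands for roughly 1 read. Endothelial markers (Cldn5, Pecam1, Cdh5, Flt1, Slco1a4, Tek) summed to 167809 to 251905 normalized counts per library with none at 0, so the labelled vessel tissue had its markers in every library. The sum was lower in the ipsilateral hemisphere 24 h after tMCAO (167809 to 190541) than after sham surgery (202726 to 235340), with no overlap. Its members differed, since Slco1a4 (16408 to 35503 against 40458 to 60644) and Flt1 (39495 to 54920 against 57595 to 79109) were lower without overlap while Pecam1, Cldn5, Cdh5 and Tek overlapped. A sum of 6 neutrophil markers (S100a8, S100a9, Ly6g, Retnlg, Cxcr2, Csf3r) was 5675, 4230 and 2491 after tMCAO and 215, 1111 and 588 after sham in these hemispheres at 24 h. Sums of pericyte and mural markers (56864 to 96520 against 102351 to 110641) and of neuron markers (1069 to 1502 against 3157 to 3410) were lower after tMCAO at 24 h, without overlap. Within the former, Rgs5 (29464 to 39499 against 53366 to 58866) and Myh11 (7389 to 18367 against 19014 to 19942) were lower without overlap. Pdgfrb, Kcnj8, Abcc9 and Acta2 overlapped. At 7 days the sums of neuron (258 to 497 against 2454 to 4211) and choroid plexus markers (647 to 3092 against 15681 to 28828) were lower. So were those of pericyte and mural (71345 to 99075 against 115928 to 120656) and fibroblast markers (5331 to 5634 against 8045 to 13184). The monocyte and macrophage (1257 to 1671 against 1736 to 2807) and T cell sums (81 to 119 against 137 to 147) were lower too. None of these sums overlapped between tMCAO and sham, and their part in the results was not tested. Within the monocyte and macrophage sum at 7 days, Mrc1 (531 to 704 against 1055 to 1778) and Ms4a7 (46 to 83 against 122 to 160) were lower without overlap. Ccr2, Ly6c2, Cd163 and Lyve1 overlapped. Within the T cell sum, Trac (19 to 29 against 50 to 62) and Cd4 (24 to 52 against 62 to 71) were lower without overlap. Cd3e, Cd3d, Cd3g and Cd8a overlapped, with their highest values after tMCAO. In bulk RNA, fewer cells of a type and less RNA per cell cannot be told apart.

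The 10 genes differed widely in abundance. Per kb of exon, which is the scale on which genes can be compared, the mean level over the 24 libraries was 6548 normalized counts for Nfkbia, 2067 for Tnfrsf1a and 734.6 for Il1r1. The transcription factors and brakes Relb, Nfkbiz and Tnfaip3 followed at 157.6, 69.94 and 57.97. Among the ligands and the antagonist, Il1b reached 46.3, Il1rn 3.43, Tnf 2.44 and Il1a 1.73. This order is of means over all groups. In the ipsilateral hemisphere 24 h after tMCAO Il1b reached 237.7 per kb, beside 242.3 for Relb, 101.3 for Nfkbiz and 88.85 for Tnfaip3.

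**Figure D1:**
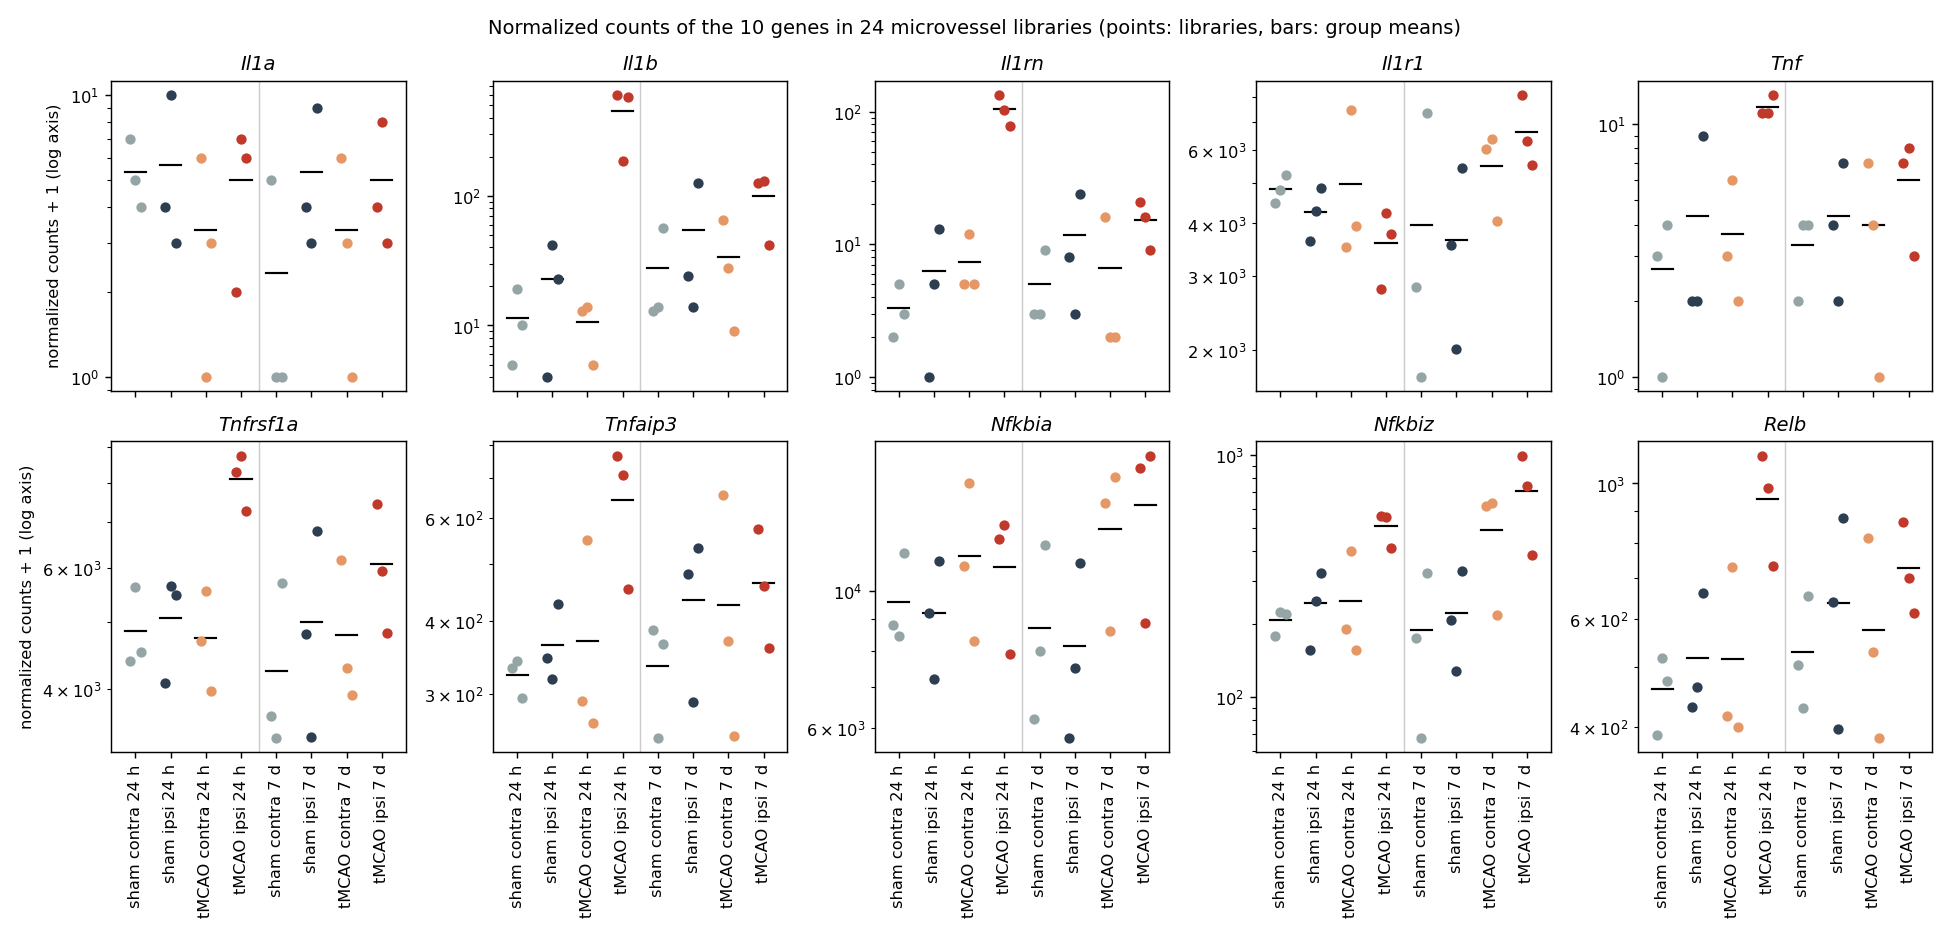
Normalized counts plus 1 (vertical axes, logarithmic) of the 10 genes in the 8 groups (horizontal axis), where points are libraries and bars are group means of 3. Il1b, Il1rn and Tnf stand above every other group in the ipsilateral hemisphere 24 h after tMCAO, while Nfkbiz and Il1r1 have their highest group mean in the ipsilateral hemisphere 7 days after tMCAO.

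Whether stroke changed these genes at 24 h was asked by comparing ipsilateral hemispheres after tMCAO and sham. The largest changes were in Il1b and Il1rn, the gene of the interleukin-1 receptor antagonist, which both rose. The TNF receptor gene Tnfrsf1a and the NF-kappaB subunit gene Relb rose by smaller amounts. Of the 8 genes tested, 4 were called higher and none lower, in a comparison that called 18.3% of all 15982 genes tested, and 10.0% of all as higher (limma, adjusted p below 0.05 and a change above 1.5-fold). The libraries of tMCAO lay above all those of sham in 6 of the 8 genes tested, where 49.0% of all genes tested did not overlap and 25.0% did so with tMCAO higher. The median log2 fold change was 0.83 over the 8 genes and -0.024 over all genes.

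Il1b (chr2:129364570-129371139 of mm10, the build of all gene positions given, minus strand) encodes interleukin-1β, the secreted ligand of the receptor. Its normalized counts were 597, 185 and 578 in the ipsilateral hemisphere 24 h after tMCAO and 3, 41 and 22 after sham. Even the lowest tMCAO library was above every sham library. The log2 fold change was 4.67 ± 0.93 (SE, adjusted p = 0.001, limma). At 7 days the counts were 125, 128 and 41 after tMCAO and 23, 13 and 124 after sham. These groups overlapped, because the third sham pool had nearly as many as the highest tMCAO pools, and the change of 1.34 ± 0.93 did not pass (adjusted p = 0.370). The tMCAO values at 7 days were all below those at 24 h, with a change of -2.19 ± 0.93 that did not pass the test either (adjusted p = 0.105).

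Il1rn (chr2:24336853-24351494, plus strand) encodes the antagonist that occupies the receptor without signalling. At 24 h it had 132, 101 and 77 normalized counts after tMCAO and 0, 4 and 12 after sham. The groups were far apart, and the change was 4.66 ± 0.89 (adjusted p = 6.8e-04). The later values were 20, 15 and 8 after tMCAO and 7, 2 and 23 after sham, which overlapped, and the change was 0.80 ± 0.89 (adjusted p = 0.609). From 24 h to 7 days after tMCAO Il1rn fell by 2.82 ± 0.89 on the log2 scale (adjusted p = 0.0309). This was the one change between times that was called among the 8 genes, where 12.2% of all genes were called and 8.44% were lower at 7 days. The call was lost without any of 4 single libraries, with an adjusted p of 0.0632 without tMCAO pool 2 and 0.111 without pool 3 at 7 days, and of 0.106 without pool 1 and 0.0733 without pool 2 at 24 h.

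Agonist and antagonist could be set against each other within each library. The log2 ratio of Il1rn to Il1b was -1.98 ± 1.03 (SD, n = 3) after tMCAO and -1.96 ± 1.12 after sham at 24 h, a difference of -0.011 (2-sided exact permutation test, p = 1). At 7 days it was -2.61 ± 0.39 and -2.06 ± 0.42, a difference of -0.54 (exact permutation p = 0.3). Between 7 days and 24 h after tMCAO the difference was -0.63 (exact permutation p = 0.4). With single pools left out, the difference at 24 h lay between -0.57 and 0.56 and that between times between -1.09 and -0.076. In the contralateral tMCAO hemisphere at 24 h the ratio was -0.53 ± 0.74 (SD, n = 3). With 3 libraries against 3 the smallest p this test can give is 0.1, so none of these could pass 0.05, and the ratio of low counts in sham libraries depends on the pseudocount.

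The remaining ligands were near the limit of detection. Tnf (chr17:35199381-35202007, minus strand) encodes TNF, and its normalized counts were 10, 10 and 12 in the tMCAO hemisphere at 24 h and 1, 1 and 8 after sham. These 2 groups did not overlap, and no other library of the series had more than 8. With a mean of 4 normalized counts Tnf lay under the limit of 5 for testing, and with no such limit its change was 1.82 ± 0.74 (adjusted p = 0.0700). At 7 days the values were 6, 7 and 2 after tMCAO and 3, 1 and 6 after sham.

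Il1a (chr2:129299610-129309972, minus strand), the gene of the membrane-held ligand interleukin-1α, had at most 9 normalized counts in any library and none in 4. It had 1, 6 and 5 after tMCAO and 3, 9 and 2 after sham at 24 h, which overlapped. Its exons are overlapped on the other strand by Gm14023, and the strand setting of the counting is not given in the sources used here, so its few reads cannot be assigned to it alone. Il1b likewise lies opposite the antisense gene Il1bos.

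Of the receptor genes, Tnfrsf1a was called at 24 h and Il1r1 at neither time, and the difference between these genes was not tested. Il1r1 (chr1:40225080-40317257, plus strand) encodes the signalling receptor for interleukin-1 and had 2782, 4228 and 3783 normalized counts after tMCAO and 3636, 4279 and 4871 after sham at 24 h. The groups overlapped, and the change was -0.26 with a 95% interval from -1.09 to 0.58 (adjusted p = 0.657). The ipsilateral tMCAO hemisphere at 24 h had the lowest group mean of all 8 groups, 3598 ± 741 (SD, n = 3). At 7 days it had the highest, 6631 ± 1331, with 8100, 6287 and 5505 after tMCAO and 3549, 2010 and 5420 after sham. These 2 groups did not overlap, though the gap between 5505 and 5420 was small, and the change of 0.95 ± 0.40 did not pass (adjusted p = 0.115).

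Tnfrsf1a (chr6:125349723-125362484, plus strand) encodes TNF receptor 1, the receptor through which TNF reaches NF-kappaB in most cells. Its normalized counts were 8280, 8758 and 7258 after tMCAO and 4071, 5647 and 5473 after sham at 24 h. Every tMCAO library lay above every sham library, and the change was 0.69 ± 0.24 (adjusted p = 0.0360). The call was lost without any of 4 single pools, with an adjusted p of 0.0898 without tMCAO pool 1, 0.109 without tMCAO pool 2, 0.157 without sham pool 1 and 0.0530 without sham pool 3. The counts at 7 days were 7449, 5940 and 4822 after tMCAO and 4802, 3399 and 6790 after sham. The groups overlapped, and the change was 0.31 ± 0.24 (adjusted p = 0.423).

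Of the feedback genes, Relb was called at 24 h and Nfkbiz at 7 days. For neither gene was the difference between the stroke effects at 24 h and 7 days called. Relb (chr7:19606217-19629438, minus strand) encodes the NF-kappaB subunit that pairs with the product of Nfkb2. It had 1110, 981 and 733 normalized counts after tMCAO and 429, 463 and 661 after sham at 24 h. The groups did not overlap, and the change was 0.87 ± 0.30 (adjusted p = 0.0331). Here too single pools decided the call, which had an adjusted p of 0.122 without tMCAO pool 1, 0.0900 without tMCAO pool 2, 0.122 without sham pool 1 and 0.0912 without sham pool 2. At 7 days the values were 864, 700 and 612 after tMCAO and 639, 395 and 878 after sham, which overlapped, and the change was 0.25 ± 0.30 (adjusted p = 0.642). Nfkb2 itself had a mean of 1535 normalized counts after tMCAO and 789.3 after sham at 24 h, a change of 0.99 ± 0.35 (adjusted p = 0.0374).

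Tnfaip3 (chr10:19000910-19015410, minus strand), which encodes A20, had 765, 709 and 452 normalized counts after tMCAO and 345, 317 and 426 after sham at 24 h. The groups did not overlap, yet the change of 0.80 ± 0.32 missed the threshold (adjusted p = 0.0635). At 7 days it had 572, 458 and 358 after tMCAO and 480, 290 and 532 after sham, with a change of 0.11 ± 0.32 (adjusted p = 0.859). Nfkbia (chr12:55489410-55492647, minus strand) encodes IkappaBα, the inhibitor that holds NF-kappaB in the cytoplasm. Its values were 12129, 12787 and 7897 after tMCAO and 9204, 7220 and 11198 after sham at 24 h. They overlapped widely, and the change of 0.24 had a 95% interval from -0.41 to 0.89. At 7 days the values were 15820, 8881 and 16560 after tMCAO and 5796, 7497 and 11113 after sham, a change of 0.76 ± 0.31 (adjusted p = 0.106).

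Nfkbiz (chr16:55811375-55838899, minus strand) encodes IkappaBζ, an atypical nuclear IkappaB protein that helps switch on a subset of NF-kappaB targets. At 24 h it had 560, 553 and 412 normalized counts after tMCAO and 156, 248 and 323 after sham. The groups did not overlap, but the change of 1.11 ± 0.51 missed the threshold (adjusted p = 0.106). At 7 days it had 992, 740 and 385 after tMCAO and 206, 127 and 329 after sham, a change of 1.67 ± 0.51 that passed (adjusted p = 0.0288). It was the one gene of the 8 called at 7 days, in a comparison that called 13.2% of all genes, and 3.27% of all as higher. Nfkbiz and Il1r1 were the 2 members without overlap at 7 days, where 30.0% of all genes did not overlap and 13.4% did so with tMCAO higher. The adjusted p was 0.137 without tMCAO pool 1, 0.0758 without tMCAO pool 2, 0.0679 without sham pool 1 and 0.134 without sham pool 2. With sham pool 3 left out, Il1r1 and Nfkbia were called beside Nfkbiz.

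**Figure D2:**
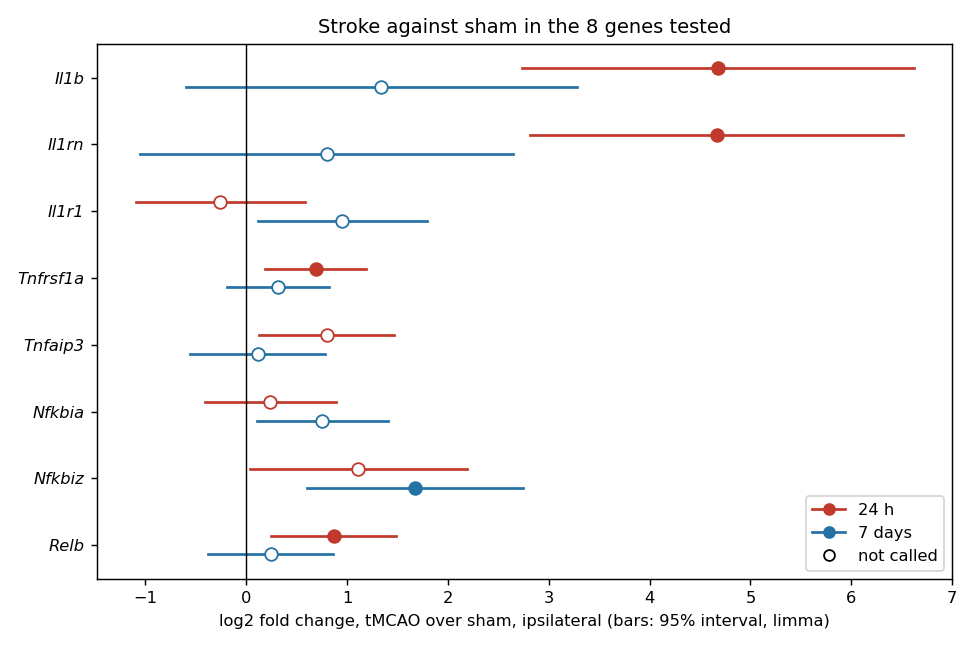
Log2 fold change of tMCAO over sham in the ipsilateral hemisphere (horizontal axis) for the 8 genes tested, with 95% intervals from limma, at 24 h and 7 days. Filled points passed the test and open points did not. Il1b and Il1rn lie at 4.67 and 4.66 at 24 h, and Nfkbiz is the one filled point at 7 days.

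The difference between the 2 stroke effects was tested as an interaction. None of the 8 genes was called by limma, although 3 had an unadjusted p below 0.05, where 8.12% of all genes were called. Il1rn came closest, with a difference of -3.87 ± 1.26 on the log2 scale (7 days minus 24 h, adjusted p = 0.0548). It was called without sham pool 2 at 7 days (-4.60, adjusted p = 0.0296) or without sham pool 3 at 24 h (-4.71, adjusted p = 0.0256). For Il1b the difference was -3.33 ± 1.32 (adjusted p = 0.112), and for Il1r1 it was 1.21 ± 0.57 (adjusted p = 0.183). A call at 24 h and none at 7 days is therefore no evidence that the effect of stroke on a gene differed between times.

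Comparing the ipsilateral with the contralateral hemisphere after tMCAO gave a second view of the same stroke libraries at 24 h, and its values are not independent of those against sham. The contralateral values at 24 h were 12, 13 and 4 for Il1b and 4, 11 and 4 for Il1rn. Both lay far under the ipsilateral values, with changes of 5.37 ± 0.93 (adjusted p = 3.7e-04) and 3.93 ± 0.89 (adjusted p = 0.00318). Tnfrsf1a had 4696, 5547 and 3971 in the contralateral hemisphere, a change of 0.78 ± 0.24 (adjusted p = 0.0222). For Relb the contralateral values were 416, 728 and 399, all below the ipsilateral ones though 728 came close to the lowest of them, 733, and the change was 0.91 ± 0.30 (adjusted p = 0.0310). These were the 4 genes called of the 8, where 13.7% of all genes were called and 8.52% were higher. The calls of Tnfrsf1a and Relb were lost without ipsilateral pool 1 or 2 or contralateral pool 1 or 3, with adjusted p between 0.0531 and 0.126. Without ipsilateral pool 3 or contralateral pool 2, Tnfaip3 was called as well (adjusted p = 0.0293 and 0.0167). At 7 days none was called by limma and 1 had an unadjusted p below 0.05, where 13.0% of all genes were called. The values were 125, 128 and 41 against 64, 27 and 8 for Il1b, and 20, 15 and 8 against 15, 1 and 1 for Il1rn. The groups overlapped for both genes, with changes of 1.79 ± 0.93 (adjusted p = 0.230) and 1.85 ± 0.89 (adjusted p = 0.185). Without contralateral pool 1, Il1rn was called with 2.85 (adjusted p = 0.0406). A fit with a replicate block for the pool number called both Il1b and Il1rn, though same-numbered stroke hemispheres were not shown to be pairs.

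Away from the stroke hemisphere limma called no gene of the set. Of all genes 0% were called between sham hemispheres at either time, in the contralateral hemisphere at 24 h and between times in the contralateral tMCAO hemisphere, and 0.476% and 0.332% between times in the ipsilateral and contralateral sham hemispheres. In these and the contralateral comparison at 7 days the unadjusted p was below 0.05 once, for Nfkbiz in the contralateral hemisphere 7 days after tMCAO. There it had 613, 634 and 218 normalized counts after tMCAO and 174, 67 and 323 after sham. A pair of the tMCAO pools lay above all sham pools and the third lay between them, with a change of 1.49 ± 0.51 (adjusted p = 0.367, 0.0313% of all genes called). Ipsilateral and contralateral Nfkbiz at 7 days after tMCAO differed by 0.58 ± 0.51 (adjusted p = 0.542). In sham animals the third pool at 7 days was high in both hemispheres for several genes, with 55 and 124 normalized counts of Il1b against 12 to 23 in the other sham pools of that time. The same pools had neutrophil marker sums of 1173 and 1628 against 124 to 298 in the others.

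Markers of neutrophils, and some of monocytes, were higher beside Il1b and Il1rn in the ipsilateral tMCAO hemisphere at 24 h. At 7 days the neutrophil sum was 4335, 2515 and 740 in the ipsilateral tMCAO hemisphere and 181, 298 and 1628 after sham. These tMCAO sums overlapped those of 24 h (2491 to 5675), while Il1b and Il1rn at 7 days lay below all their values at 24 h. Ly6g, a defining neutrophil marker, had 9 to 21 normalized counts in the ipsilateral tMCAO libraries at 24 h and 0 to 3 in the sham ones. For monocytes and macrophages the sum of 6 markers was 2465 to 5426 after tMCAO and 2106 to 3348 after sham at 24 h, and that of 6 microglia markers 525 to 768 and 578 to 1331. These sums overlapped, but within the first the monocyte markers Ccr2 (417 to 686 against 65 to 108) and Ly6c2 (102 to 142 against 54 to 64) were higher after tMCAO without overlap, while Mrc1, Cd163, Lyve1 and Ms4a7 overlapped. The part of any of these cells in the rise of the cytokine genes was not tested.

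**Figure D3:**
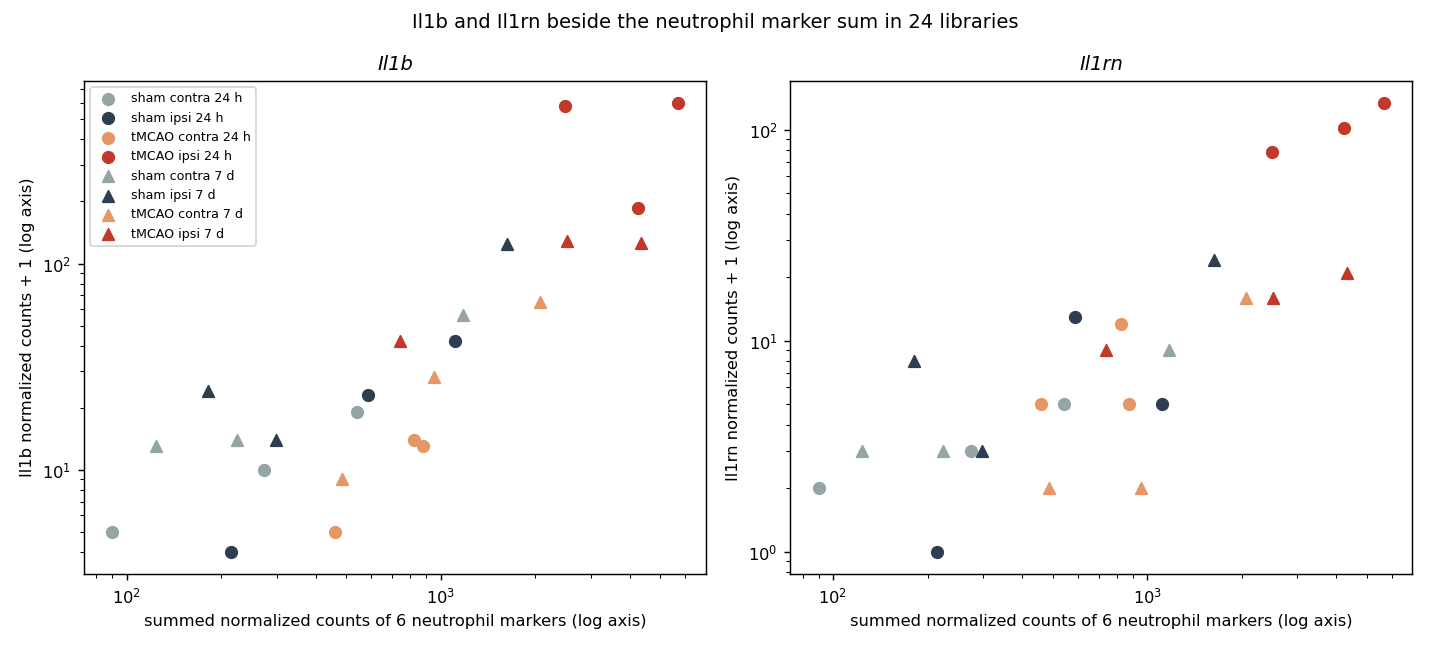
Normalized counts plus 1 of Il1b and of Il1rn (vertical axes, logarithmic) against the summed normalized counts of 6 neutrophil markers (horizontal axes, logarithmic), where each point is 1 of 24 libraries, circles are 24 h and triangles are 7 days. Both genes tend to be higher where the marker sum is higher, with exceptions such as Il1b at 578 beside a sum of 2491 and at 185 beside 4230, and the 3 ipsilateral tMCAO libraries at 24 h lie above the tMCAO libraries of 7 days at a like marker sum.

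Per 1000 normalized counts of the neutrophil markers, a measure chosen after the values were seen, Il1b stood at 105, 43.7 and 232 in the ipsilateral tMCAO hemisphere at 24 h. In the ipsilateral sham hemisphere it stood at 13.95, 36.9 and 37.4, all below. The contralateral sham libraries at 24 h stood at 44.44, 33.15 and 32.85. Of these, 44.44 lay above the lowest tMCAO value and rests on a marker sum of 90. At 7 days Il1b in the ipsilateral hemispheres was 28.8, 50.9 and 55.4 after tMCAO and 127, 43.6 and 76.2 after sham, which overlapped. For Il1rn in the same hemispheres the measure was 23.3, 23.9 and 30.9 after tMCAO and 0, 3.6 and 20.4 after sham at 24 h. These did not overlap, while at 7 days it was 4.61, 5.96 and 10.8 after tMCAO and 38.7, 6.71 and 14.1 after sham, which overlapped. The part of neutrophils in these values was not tested.

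Once each group's mean was taken out, the genes still varied together from library to library. Over the 24 libraries Pearson's r of these residuals was 0.92 for Tnfaip3 and Relb, 0.88 for Il1rn and Tnfrsf1a, 0.87 for Il1r1 and Nfkbiz, and 0.82 for Il1b and Il1rn. Nfkbia was least like the rest, with r between 0.15 and 0.46 against the other 7 genes tested. Residuals of Il1b had r = 0.86 with those of the neutrophil sum, Tnfrsf1a 0.85 and Il1rn 0.74, while Tnfaip3 had 0.46 and Nfkbia 0.38. With astrocyte markers Relb had 0.74 and Tnfaip3 0.66, above their values for neutrophils (0.66 for Relb), and with pericyte and mural markers Tnfaip3 had -0.67. For Nfkbia the strongest were -0.73 with the microglia sum and 0.68 with that of astrocyte markers. All these values share libraries and their normalization and are given as a description.

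A search of all genes tested for the patterns most like each member, by Pearson's r over the 24 libraries, gave the following neighbours. Among the genes most like Il1b were Mefv and Trem1, both with r = 0.95. Il1rn was most like Metrnl (0.96), Siglece (0.95) and Cd44 (0.94). For Relb it was Nfkb2 (0.97), Ubtd1 (0.95) and Tnfaip3 (0.94), which are NF-kappaB pathway genes except for Ubtd1. Nfkbiz was most like Ackr1 (0.93), Ier3 (0.93) and Cd14 (0.92), Il1r1 most like Serpina3g (0.92), Serpina3i (0.90) and Galnt15 (0.89), and Tnfrsf1a most like Cd200, Slc39a1 and Junb (0.95, 0.95 and 0.94). Beside Relb, Tnfaip3 was most like Supv3l1 and Abi3 (both 0.92). The nearest genes of Nfkbia were Ddit4 (0.95), Rasd1 (0.94) and Csrnp1 (0.92).

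The other genes of these pathways were read from 5 lists holding 79 genes, of which 76 were tested. In the ipsilateral hemisphere 22 of the 76 were higher after tMCAO at 24 h and none lower, where 10.0% of all genes were higher, and 8 were higher and none lower at 7 days, where 3.27% of all genes were higher. Of 15 genes of the interleukin-1 family and the inflammasome, 7 were higher at 24 h. The largest were Il1r2, the decoy receptor that binds interleukin-1 without signalling, with 3.72 (adjusted p = 0.00865), Il1f9, which encodes the ligand IL-36γ, with 2.99 from means of 21 and 1.667 normalized counts, and Il18rap, a subunit of the interleukin-18 receptor, with 2.01. At 7 days 3 were higher, Il1r2 by 2.93, Il18rap by 2.44 and Gsdmd, the pore-forming gasdermin D, by 0.63. The list's median log2 fold change was 0.85 at 24 h and 0.35 at 7 days, where all genes had -0.024 and 0.025. Il1f9 lay over the limit for testing mainly through the stroke hemispheres, where it was high.

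Of 24 adaptors and kinases of both receptors, Traf1 (0.88) and Myd88 (0.71), the adaptor of the interleukin-1 receptor, were higher at 24 h, a share near the 10.0% of all genes, and the median of the list was 0.056. At 7 days Traf1 (1.46, adjusted p = 6.8e-04) and Birc3 (0.84) were higher, where 3.27% of all genes were higher. Among the 8 subunits of NF-kappaB and kinases of IkappaB, Nfkb2 was the one gene called at 24 h and none was called at 7 days. The share at 24 h was again near the 10.0% of all genes. Of 15 other inhibitors and feedback genes, 4 were higher at 24 h, where 10.0% of all genes were higher. They were Nfkbid (1.66), Nfkbie (1.05) and Nfkbib (0.83), which encode IkappaB proteins, and Tnip1 (0.89), whose product binds A20. At 7 days Nfkbie (0.87) and Zc3h12a (0.72), which encodes a nuclease of cytokine mRNA, were higher, where 3.27% of all genes were higher. So Nfkbie was called at both times, where Nfkbia was called at neither. At 7 days their changes were 0.87 and 0.76, and the difference between these genes was not tested. With single pools left out, Nfkbia at 7 days was called in 2 of 6 fits.

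Genes known as NF-kappaB targets in activated vessels had the highest list median. At 24 h 8 of 14 were higher, against 10.0% of all genes, with a median log2 fold change of 2.60, and at 7 days the median was 0.47. Il6, the gene of interleukin-6, had a mean of 772.7 normalized counts after tMCAO and 13.67 after sham, a change of 6.26 ± 1.10 (adjusted p = 3.2e-04). Csf3, the gene of the neutrophil growth factor G-CSF, rose by 5.43, and Selp, the gene of the leukocyte rolling receptor P-selectin, by 4.60. At 7 days 1 of the 14 was higher, against 3.27% of all genes, the adhesion molecule gene Icam1, with 1.38 ± 0.17 (adjusted p = 1.6e-05) and a mean of 3678 normalized counts after tMCAO and 1432 after sham. At 24 h Icam1 had a change of 1.18 ± 0.17. Against the contralateral tMCAO hemisphere at 7 days, with a mean of 2615, its change was 0.49 ± 0.17 (adjusted p = 0.0608). For the contralateral hemispheres at 7 days, tMCAO against sham, the median of the 14 targets was 1.195, above the ipsilateral 0.47. There 1 of the 14 was called higher, against 0.0313% of all genes called. Between the ipsilateral and contralateral sham hemispheres at 7 days the median was 0.84, with 0 called.

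**Figure D4:**
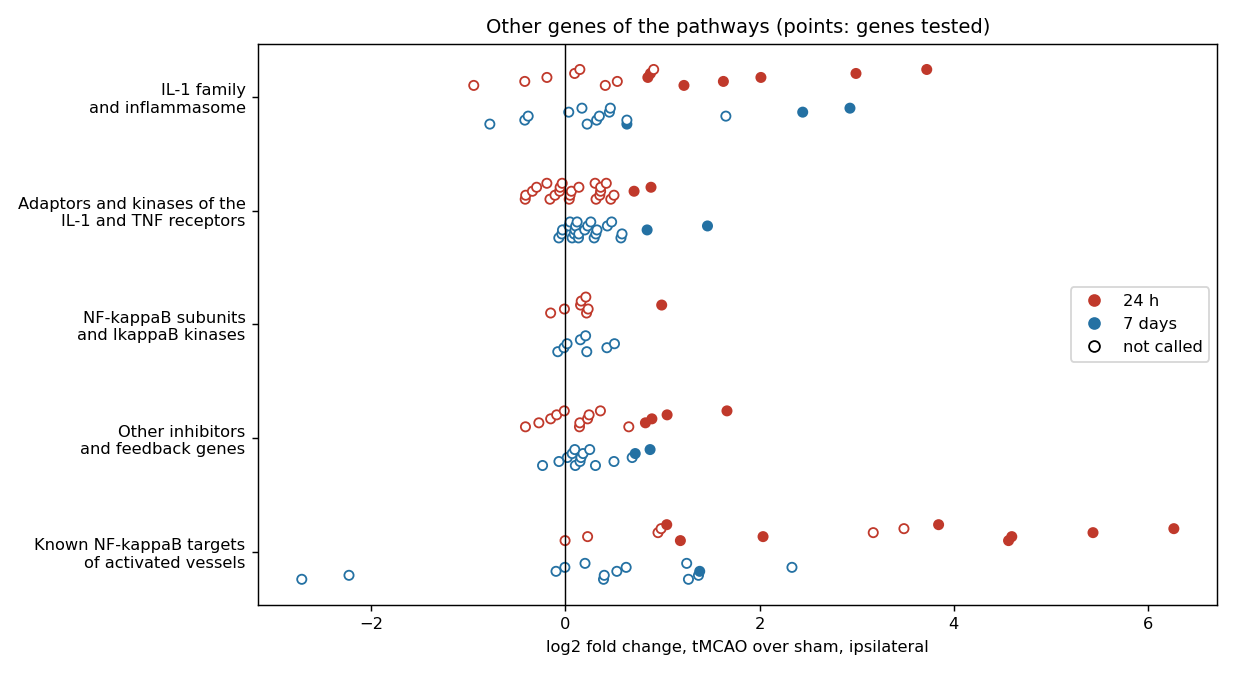
Log2 fold change of tMCAO over sham in the ipsilateral hemisphere (horizontal axis) for the tested genes of 5 lists (vertical axis), red for 24 h and blue for 7 days, with filled points for genes that passed the test and open points for those that did not. At 24 h 8 of the 14 targets are filled with values up to 6.26, against 2 of the 24 adaptors and kinases, where 10.0% of all genes were higher.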

How the data were processed

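Libraries were stranded, poly(A)-based mRNA libraries from microvessel RNA, 3 for each of 8 groups named by surgery, hemisphere and time. The authors aligned reads to mm10, counted them per gene and normalized over all libraries. The submitters' notes name STAR 2.5.2b, featureCounts 1.5.1 and DESeq2 1.6.2, and the study's methods give other versions of STAR and DESeq2. The deposited values are a score, normalized counts that the authors rounded to whole numbers, so no count model was used. Depth, estimated from the table, was 13691467 to 20033951 reads per library.

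Log2(normalized count + 1) of the 15982 genes with a mean above 5 was fitted over all 24 libraries with limma 3.58.1 in R 4.3.3 with a mean-variance trend. Benjamini-Hochberg adjustment took in every gene tested, and a gene was called with adjusted p under 0.05 and a change above 1.5-fold. Fold changes are on this log2 scale, which understates those of low genes. P-values measure the spread between pools of 3 hemispheres. The fit was tested on simulated data. Exon length came from GENCODE M21.

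The members, lists and tests were chosen with earlier results of these data known. The 10 members are all named. Of each pathway list the 3 largest called changes in each direction are named, or all called genes where there were 5 or fewer, with Icam1 at 24 h added to set beside its value at 7 days, and for each member the 3 most similar genes, of which 1 is not reported here. Deviations of same-numbered hemispheres correlated above 0.1 in every pair after sham, at 0.145 to 0.467, a pairing that comes from the data and not the labels and changed no call there. After tMCAO they correlated at 0.059 to 0.36, not above 0.1 in every pair. Alternatives were another pseudocount, filter, centring and fit, and leaving out each pool.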

Additional observations from a re-analysis of the deposited data

How the results depend on the processing

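At 24 h, 4 genes were called against sham, and 2 to 5 when single pools were left out. Without tMCAO pool 1 or 2, or sham pool 1, only Il1b and Il1rn were called. At 7 days the count was 1, and 0 to 3 with single pools left out. Between hemispheres after tMCAO it was 4, with 2 to 5, at 24 h, and 0, with 0 to 1, at 7 days. Between times after tMCAO it was 1, with 0 to 1, and for the interaction 0, with 0 to 1. The count between times was 0 with a pseudocount of 0.5, 0 with a mean above 20, a limit that leaves out Il1rn, and 3 in a fit of the compared groups alone (Il1b, Il1rn and Il1r1). The cause of the others was not tested. With a replicate block for the pool number, the hemispheres after tMCAO at 7 days gave 2 calls, Il1b (adjusted p = 0.0180) and Il1rn (0.0428). Same-numbered stroke hemispheres correlated at 0.059 to 0.36, so the numbers were not shown to pair them. At 24 h the fit of the compared groups alone added Tnfaip3 (adjusted p = 0.0225) and Nfkbiz (0.0147). The ratio of Il1rn to Il1b at 24 h turned from -0.011 to 0.31 with a pseudocount of 0.5. Uncalled changes turned direction only with single pools left out: at 7 days against sham Tnfaip3 (-0.15 to 0.28) and Relb (-0.061 to 0.51), and between hemispheres Nfkbia (-0.26 to 0.17 at 24 h, -0.14 to 0.40 at 7 days) and Tnfaip3 at 7 days (-0.11 to 0.57). Median centring changed no member's call. It moved the median of all genes between times after tMCAO from -0.039 to 0.066, and the calls from 594 higher and 1349 lower to 939 and 1033. Against sham at 24 h these went from 1603 and 1316 to 1331 and 1707. Low counts limit Il1a, Tnf and, outside the stroke hemisphere, Il1rn.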
